A study of Homo sapiens with 4 samples.

Results

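MX1, MX2, RSAD2 and CMPK2 are antiviral genes switched on by interferon, and they are described here in a human lung cancer cell line after exposure to a mitotic kinase inhibitor. The 4 genes were picked by name because their read counts were among those that rose most in this same comparison, so their rises are given as a description and without a test. Each of the 4 symbols stood on a single line of the deposited count sheets, which hold 46427 lines in all. All 4 genes passed the filter on low counts that left 16738 genes for testing.

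NCI-H1944 cells, a lung cancer line, received either the vehicle DMSO or BAY1217389, which inhibits the kinase MPS1 (gene name TTK) and so lets cells leave mitosis before their chromosomes are properly attached. Exposure lasted 48 h in both groups, and RNA was taken 24 h after the medium had been replaced. Each group had 2 libraries that the labels call biological replicates, all from this 1 line, and the stated aim of the series is to find genes that restrain the STING pathway for sensing DNA in the cytosol. Libraries held 38904473 to 43661342 reads assigned to genes, and with 2 libraries a group any test measures only the spread between these libraries, since nothing states that they came from separate cultures.

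MX1 and MX2 (proteins MxA and MxB) are large GTPases related to dynamin that assemble into rings and block incoming viruses, MxA in the cytoplasm and MxB at the nuclear pore. RSAD2 encodes viperin, a radical SAM enzyme with an iron-sulphur cluster that converts CTP into a chain-terminating nucleotide. CMPK2, its neighbour on chromosome 2, encodes a mitochondrial nucleotide kinase that phosphorylates CMP, UMP and their deoxy forms. In the textbook pathway, interferon binding to its receptors activates the kinases JAK1 and TYK2, and these switch on the transcription factor ISGF3, of which IRF9 is a part. ISGF3 binds the interferon-stimulated response element (ISRE), whose core is a pair of GAAA motifs with 2 free bases between them, while IRF proteins also bind such elements on their own.

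The promoter sequences are shown first because they carry a feature that the choice of genes did not use. The table of RefSeq promoters used here (build GRCh38.p14) gave 8 windows, each 250 bases before to 50 after an annotated start, for 3 of the 4 genes: MX1, RSAD2 and CMPK2. Gene counts do not say which start was used in these cells. In the 5 windows printed here, capitals mark that ISRE core and a tighter repeat with 1 free base between the GAAA motifs (GAAANGAAA), on either strand, where the opposite strand reads TTTC. Adjacent or overlapping matches run together in capitals.
RSAD2 start 1, plus strand, chr2:6865635-6865934: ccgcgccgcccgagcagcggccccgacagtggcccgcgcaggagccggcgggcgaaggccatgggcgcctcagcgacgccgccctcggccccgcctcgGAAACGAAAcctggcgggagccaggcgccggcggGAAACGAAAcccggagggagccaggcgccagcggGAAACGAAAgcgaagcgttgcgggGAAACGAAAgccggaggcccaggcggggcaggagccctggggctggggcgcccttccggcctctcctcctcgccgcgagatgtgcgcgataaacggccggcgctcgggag
CMPK2 start 1, minus strand, chr2:6865770-6866069: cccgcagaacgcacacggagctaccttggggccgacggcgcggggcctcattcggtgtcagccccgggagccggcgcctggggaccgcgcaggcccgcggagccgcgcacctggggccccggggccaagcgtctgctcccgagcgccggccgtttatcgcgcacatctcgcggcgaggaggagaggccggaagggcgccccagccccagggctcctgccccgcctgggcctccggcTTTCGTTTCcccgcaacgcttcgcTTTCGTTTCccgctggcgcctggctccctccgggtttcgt
RSAD2 start 2, plus strand, chr2:6877527-6877826: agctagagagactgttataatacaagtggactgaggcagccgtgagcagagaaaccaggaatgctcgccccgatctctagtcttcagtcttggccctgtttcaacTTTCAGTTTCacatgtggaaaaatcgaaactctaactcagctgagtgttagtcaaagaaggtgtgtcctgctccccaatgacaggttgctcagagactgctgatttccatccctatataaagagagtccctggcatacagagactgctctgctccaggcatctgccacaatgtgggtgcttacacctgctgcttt
MX1 start 1, plus strand, chr21:41420308-41420607: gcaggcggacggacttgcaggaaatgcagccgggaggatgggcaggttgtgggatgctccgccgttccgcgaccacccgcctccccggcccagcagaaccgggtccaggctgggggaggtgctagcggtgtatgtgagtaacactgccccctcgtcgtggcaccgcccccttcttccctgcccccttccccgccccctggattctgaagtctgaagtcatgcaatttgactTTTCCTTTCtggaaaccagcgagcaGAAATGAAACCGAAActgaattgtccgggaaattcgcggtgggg
MX1 start 2, plus strand, chr21:41425989-41426288: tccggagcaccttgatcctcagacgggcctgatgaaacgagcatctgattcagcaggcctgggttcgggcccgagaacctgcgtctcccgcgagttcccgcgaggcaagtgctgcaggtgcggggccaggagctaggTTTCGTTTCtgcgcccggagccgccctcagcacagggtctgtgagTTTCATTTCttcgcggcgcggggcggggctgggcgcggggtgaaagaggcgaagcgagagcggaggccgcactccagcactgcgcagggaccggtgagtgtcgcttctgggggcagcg

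RSAD2 and CMPK2 are transcribed away from each other, and the windows of RSAD2 start 1 and CMPK2 start 1 share 165 bases. The RSAD2 start 1 window held 4 copies of GAAACGAAA, and 2 of these lie in the shared bases and so appear, as TTTCGTTTC, in CMPK2 start 1. Among all 35116 promoter windows of the table, 57 held at least 1 copy of GAAACGAAA on either strand (0.162%) and 1 held at least 3, which was RSAD2 start 1. With any base in the middle (GAAANGAAA), 1097 windows held a copy (3.12%), 4 held at least 3, and RSAD2 start 1 alone held 4. These repeats were searched for after the sequences had been read, so their rarity describes the table and is no test.

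The ISRE core itself was in 1255 of the 35116 windows (3.57%) and, counted by gene, in 1195 of 27305 genes (4.38%). It was found 1 time in RSAD2 start 2, with the letters TTTCAGTTTC at -145 to -136 from the start, together with a TATA box (TATAAA, in 11.5% of windows) at -30. MX1 start 1 held it at 12 to 21 after the start (GAAACCGAAA), inside a run that also matches the tighter repeat. MX1 start 3 held it at -196 to -187, overlapping a match to GAS, the gamma-activated sequence TTCNNNGAA (7.66% of windows). MX1 start 2 had 2 tight repeats and no ISRE core. None of the 3 CMPK2 windows held the ISRE core, although CMPK2 start 1 had 3 matches when 1 mismatch was allowed, a looser search that also hits 33% of all windows. A GC box (GGGCGG, 45% of windows) was present in MX1 starts 1 and 2, RSAD2 start 1 and CMPK2 start 2. Of 37 other interferon-induced antiviral genes with a window, listed by hand, 26 (70.3%) had the ISRE core in at least 1 of their windows and 13 (35.1%) had the tighter repeat. A match is a run of letters and not a measured binding site.

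**Figure D1:**
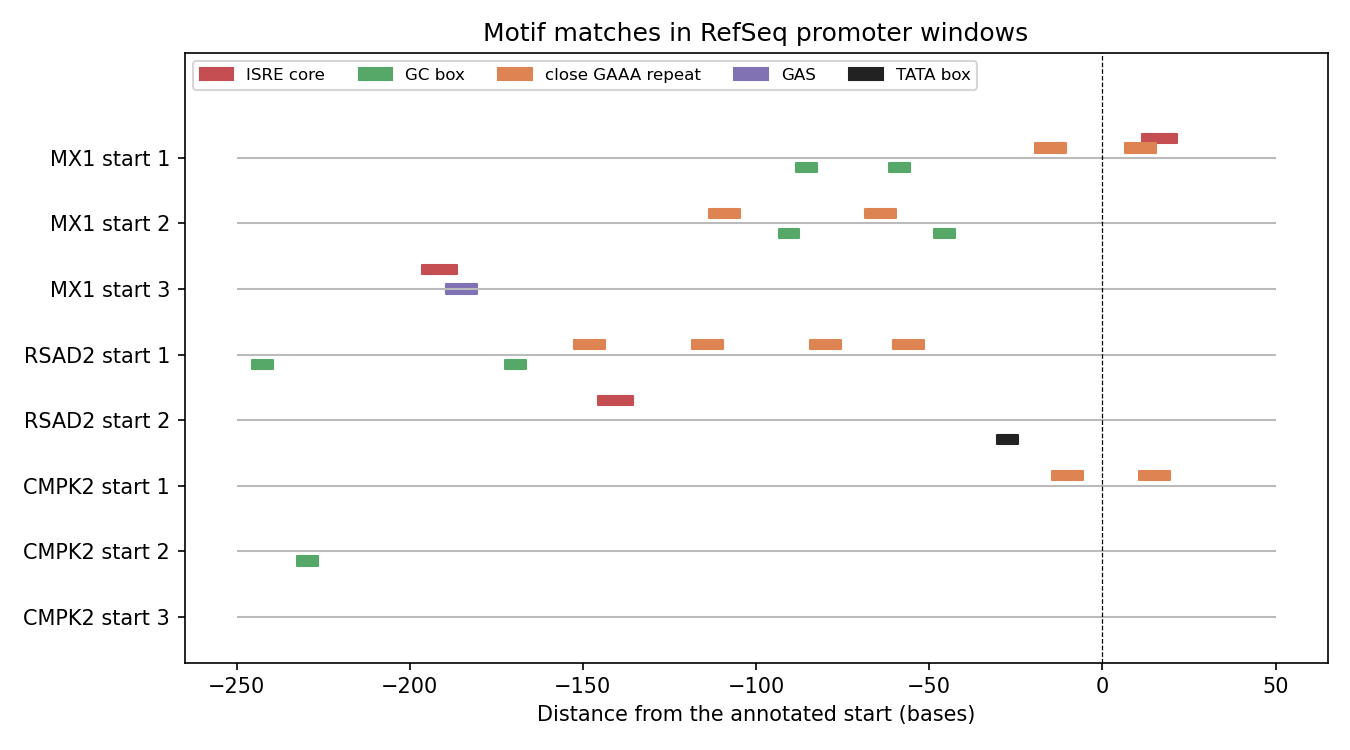
Matches to 5 motifs in the 8 promoter windows of MX1, RSAD2 and CMPK2, by distance in bases from the annotated start (dashed line), where bars are matches on either strand and rows are windows. RSAD2 start 1 carries 4 tight GAAA repeats, and the ISRE core appears in MX1 starts 1 and 3 and in RSAD2 start 2.

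MX1 had 2209 and 2133 reads with DMSO and 39269 and 38633 with BAY1217389. In CPM, reads scaled to a common library total after TMM normalization, that is 55.3 ± 1.12 with DMSO and 902 ± 0.972 with BAY1217389 (mean ± SD, n = 2 libraries each). Both BAY1217389 libraries lay far above both DMSO libraries, and the lowest BAY1217389 value was 16.1 times the highest DMSO value. The fitted log2 fold change was 4.03 (SE 0.03), from edgeR's quasi-likelihood model, and replicates within a group differed by factors of 1.03 and 1.00. MX1 moved from rank 3693 to rank 122 in mean CPM among the genes tested, and its share of all assigned reads went from 0.00555% to 0.0898%.

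MX2 had the largest fold difference of the 4. Its reads numbered 32 and 35 with DMSO and 4445 and 4738 with BAY1217389, or 0.853 ± 0.0578 and 106 ± 6.14 CPM (n = 2 each). The libraries of the groups did not overlap, the lowest BAY1217389 value being 114 times the highest DMSO value. The log2 fold change was 6.96 (SE 0.18). Because the DMSO libraries gave so few reads, counting error dominates: the ratio of summed reads was 125, with an exact binomial 95% interval of 98.0 to 161. This interval and those below come from reads summed over the 2 libraries of a group, so they leave out the spread between libraries. PCR copies of a molecule were not told apart, so the intervals may be too narrow even for counting error.

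The MX pair was therefore closer together with BAY1217389 than with DMSO. With DMSO there were 69.0 and 60.9 MX1 reads for each MX2 read, and with BAY1217389 there were 8.83 and 8.15. Over summed reads the ratio was 64.8 with DMSO (95% interval 50.9 to 83.8) and 8.48 with BAY1217389 (8.30 to 8.67). The 2 genes lie next to each other on chromosome 21 on the same strand, and their coding sequences matched at 71.4% of 1968 aligned bases, MX2 being 159 bases longer (GENCODE 29). Reads could in principle be assigned to the wrong partner, so 50-base stretches of each gene's longest protein-coding transcript were looked up in all other genes. For MX2, 19 of 2993 stretches (0.635%) also occurred in another gene, MX1, and for MX1 158 of 3421 (4.62%) occurred in MX2 or in AP001610.1. How such shared reads were counted is not stated.

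RSAD2 gave 105 and 121 reads with DMSO and 3519 and 3487 with BAY1217389. In CPM it went from 2.88 ± 0.301 to 81.1 ± 0.50 (n = 2 each), and again the groups did not overlap. Its DMSO libraries differed most among the 4 genes, by a factor of 1.16, against 1.01 between its BAY1217389 libraries. The log2 fold change was 4.82 (SE 0.10) and the ratio of summed reads 28.2 (95% interval 24.7 to 32.3). For RSAD2, 10 of 3470 stretches of 50 bases (0.288%) occurred in other genes.

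CMPK2 gave 97 and 102 reads with DMSO and 4086 and 3783 with BAY1217389, or 2.53 ± 0.101 and 91.1 ± 3.81 CPM (n = 2 each). The groups did not overlap, and the log2 fold change was 5.17 (SE 0.11). The ratio of summed reads was 36.0 (95% interval 31.2 to 41.6). None of its 2835 stretches of 50 bases, 0 in all, occurred in another gene.

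CMPK2 and RSAD2 stayed close to each other in both groups. There were 0.924 and 0.843 CMPK2 reads for each RSAD2 read with DMSO, and 1.16 and 1.08 with BAY1217389. The ratio of summed reads was 0.881 with DMSO (95% interval 0.724 to 1.07) and 1.12 with BAY1217389 (1.09 to 1.16). The 4 ratios do not overlap between groups, but the choice of both genes for their rises leaves this as a description.

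**Figure D2:**
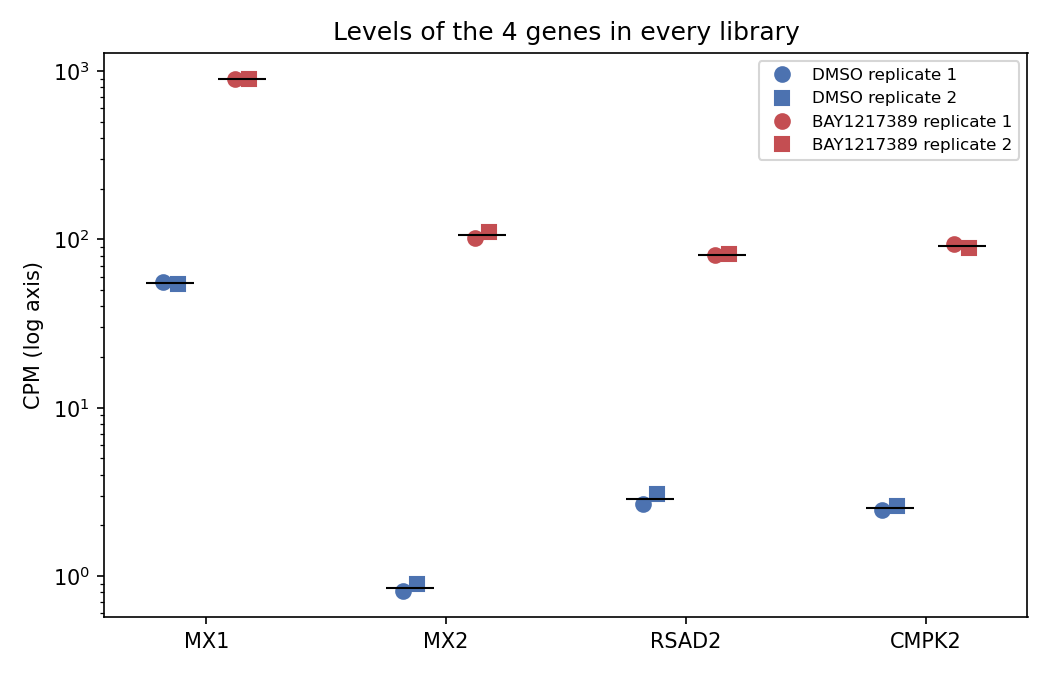
CPM on a log axis for MX1, MX2, RSAD2 and CMPK2 in each of the 4 libraries, with circles for replicate 1, squares for replicate 2 and a black line at the mean of 2 libraries. The replicates nearly coincide, MX1 goes from 55.3 to 902 CPM and MX2 from 0.853 to 106 CPM, values that are not scaled for gene length.

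In all 4 genes both BAY1217389 libraries exceeded both DMSO libraries, as they did in 30.5% of all genes tested, and nothing is read from this for genes chosen for rising. Among the genes tested the log2 fold changes ranked 27 for MX2, 48 for CMPK2, 51 for RSAD2 and 63 for MX1. The genes next to them were looked up among genes that passed the test with at least 5 CPM in a group. MX2, RSAD2 and CMPK2 reached that level only with BAY1217389, so their places there follow from the choice of genes. Those next genes were IFNL2 and IFNL1 around MX2, NEXN above CMPK2 (5.22), RTP4 below RSAD2 (4.75), and USP41 (4.13) and XAF1 (4.01) around MX1. RNA came from whole cultures, so a larger number of cells carrying a transcript and more transcript in each cell cannot be told apart.

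Levels of different genes are comparable per length. Per kilobase of the longest protein-coding transcript (GENCODE 29), MX1 had 15.9 ± 0.324 CPM with DMSO, CMPK2 0.879 ± 0.0351, RSAD2 0.818 ± 0.0855 and MX2 0.280 ± 0.0190. CMPK2 and RSAD2 did not differ beyond their spread there, since their DMSO libraries overlap. With BAY1217389 the order was MX1 (260 ± 0.280), MX2 (35.0 ± 2.02), CMPK2 (31.6 ± 1.32) and RSAD2 (23.0 ± 0.142), with no overlap between neighbours. The lower places depend on the length used: per kilobase of coding sequence, the level after BAY1217389 was 454 ± 0.490 for MX1, 74.9 ± 0.462 for RSAD2, 67.6 ± 2.83 for CMPK2 and 49.6 ± 2.86 for MX2. MX1 stood first on both scales and in both groups.

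Genes with the most similar pattern over the 4 libraries were found by the Euclidean distance between gene-centred log2 CPM, among 11282 other genes with at least 5 CPM in a group. MX2, RSAD2 and CMPK2 reached that level only with BAY1217389, as did every nearest gene named below except IFIT1. The likeness therefore follows from the choice of genes and is a description. With 4 libraries in 2 groups this distance mainly compares fold changes. A prior count of 2 was added first, which lowers the fold changes of genes with few DMSO reads. MX1 was nearest to USP41 (distance 0.0219), IFIT1 (0.0582) and GBP1 (0.114), RSAD2 to RTP4 (0.343), CMPK2 (0.362) and SLC15A3 (0.594), and CMPK2 to SLC15A3 (0.267), RSAD2 and RTP4 (0.638). MX2 was nearest to IFNL2 (0.256), and its next genes were IFNL1 (1.47) and SLC15A3 (1.5). IFNL2, a type III interferon gene, gave 0 reads in either DMSO library, so its pattern depends on the prior count of 2, and against 3 reads over the DMSO group it was at least 143-fold higher. USP41, RTP4, SLC15A3 and IFNL1 had 0.649, 0.242, 0.140 and 0.089 CPM with DMSO, so their places depend on the prior count too. By fitted log2 fold change, SLC15A3 (5.78) lay further from CMPK2 (5.17) than RSAD2 (4.82) did. Likewise USP41 (4.13) lay further from MX1 (4.03) than IFIT1 (3.99) did. USP41 and IFNL2 have near-identical copies, and their counts are uncertain.

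Genes that produce and carry interferon signals were higher too, among them STAT2 and IRF9. Of 18 ligand, receptor, kinase, factor, sensor and adaptor genes listed, those of DNA and RNA sensing included, 13 rose, 1 fell and 4 did not pass. The test was edgeR's at an adjusted p of 0.05, and all 18 were tested. Their median log2 fold change was 0.49, against 0.0011 for all genes tested, and it was 0.27 with the stricter filter of 5 CPM. Of all genes tested, 14.5% rose and 13.3% fell, the shares to set beside each list count below. STAT2, a signalling factor of the interferon receptors, rose from 80.9 ± 5.46 CPM with DMSO to 291 ± 5.92 CPM (1.85, SE 0.04 on the log2 scale; edgeR adjusted p = 1.03e-25). IRF9, which gives ISGF3 its DNA contacts, went from 46.0 ± 0.697 to 90.0 ± 1.33 CPM (0.97). IRF7 (2.30) and IRF1 (1.48), factors that bind interferon promoters, rose too. The gene that fell, named after its values were seen, was MAVS (-0.28), the mitochondrial adaptor of RNA sensing. The median is the same with IFNB1, which had 0 reads with DMSO, set to its lower bound.

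The 4 genes rose with the other listed antiviral interferon effectors and stood at the upper end of that list. All 44 other antiviral interferon-induced genes that were tested rose. Their log2 fold changes ran from 0.73 to 4.75 around a median of 2.75, and 43 were 1 or more. Of these 44, 1 gene, RTP4, had a larger log2 fold change than MX1, and 0 exceeded RSAD2, CMPK2 or MX2, which is how the 4 were chosen. Some genes outside this list had larger fitted values, from few DMSO reads. GBP4 (4.29, 8 and 13 reads with DMSO) exceeded MX1. IFNL1 (6.11, 5 and 2 reads with DMSO) exceeded MX1, RSAD2 and CMPK2. GBP5, IFNB1 and IFNL2 had 0 reads with DMSO, so their places beside the 4 genes are not settled. IFIT1, which binds foreign RNA, went from 40.6 ± 0.342 to 645 ± 1.70 CPM (3.99) and IFIT3 from 37.4 ± 0.411 to 489 ± 6.54 CPM (3.71). OAS2, a synthetase activated by double-stranded RNA, went from 41.3 ± 1.64 to 624 ± 4.85 CPM (3.92). IFI6, a small mitochondrial protein gene, had 170 ± 0.105 CPM with DMSO and 1332 ± 9.24 with BAY1217389 (2.97). The list and the 4 genes were assembled with earlier results of these data known.

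**Figure D3:**
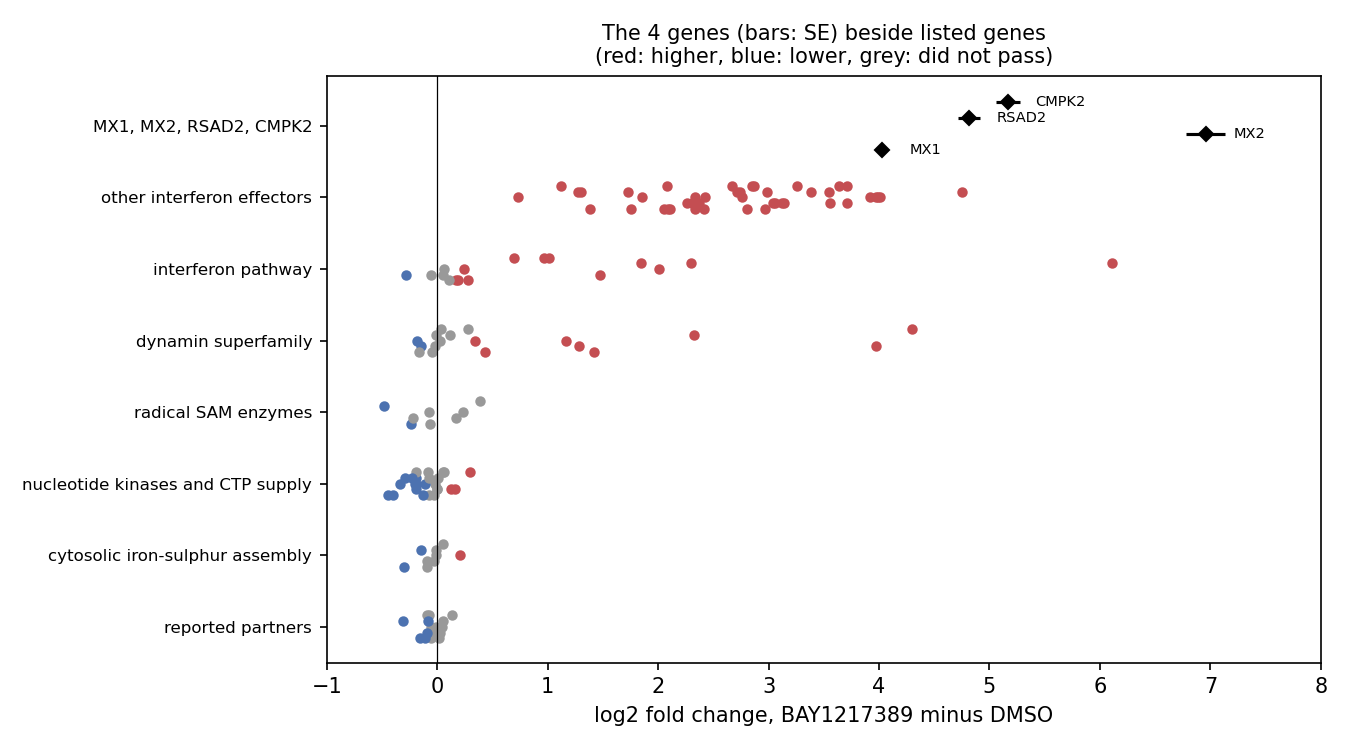
Log2 fold changes, BAY1217389 minus DMSO, for the 4 genes (diamonds, bars show SE) and for every tested gene of 7 lists (points; red rose, blue fell, grey did not pass), leaving out IFNB1 and GBP5, which had 0 reads with DMSO. The 4 genes lie between 4.03 and 6.96, the other effectors between 0.73 and 4.75, and the enzyme and partner lists near 0.

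Among relatives of the MX proteins, the largest rises were in the guanylate-binding protein branch. Of 19 other genes of the dynamin superfamily, 9 rose (median of all 19, 0.28 on the log2 scale), 2 fell and 8 did not pass. These 19 include GBP1, which is also in the list of interferon effectors above. Leaving out DMSO replicate 1 lowered the median of the list to 0.16, leaving out BAY1217389 replicate 1 to 0.18, and requiring 5 CPM in 2 libraries to 0.13. Leaving out DMSO replicate 2 raised it to 0.40. Leading by p-value were the guanylate-binding protein genes GBP1 (3.97, from 2.11 to 33.2 CPM), GBP3 (2.32, from 6.59 to 32.9 CPM) and GBP4 (4.29, from 8 and 13 to 227 and 231 reads), and the membrane-remodelling gene EHD4 (1.42, from 8.89 to 23.7 CPM). GBP5, outside the rule for names, gave 0 and 0 reads with DMSO and 38 and 65 with BAY1217389, at least 31.2-fold higher than the limit of 3 reads over the DMSO group. DNM2, the dynamin of endocytosis, had a log2 fold change of -0.04 and DNM1L, the dynamin of mitochondrial fission, 0.03, neither passing the test (edgeR adjusted p = 0.584 and 0.590). The genes that fell, named after their values were seen like DNM2 and DNM1L, were OPA1 (-0.18, edgeR adjusted p = 0.00722, range 0.00611 to 0.0897) and ATL2 (-0.15, 0.0105, range 0.00716 to 0.141). Both calls were lost with DESeq2, that of OPA1 also without DMSO replicate 1 and that of ATL2 without DMSO replicate 2 or BAY1217389 replicate 2.

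Among the other radical SAM enzymes the highest log2 fold change was 0.38. Of 8 tested, 0 rose, 2 fell and 6 did not pass (median log2 fold change -0.07). Over all genes tested 14.5% rose and 13.3% fell, so counts from 8 genes do not set this family apart. LIAS, which makes lipoic acid in mitochondria, went from 514 and 522 reads to 466 and 349 (-0.48, SE 0.11, edgeR adjusted p = 0.0012), a call lost without BAY1217389 replicate 2 (0.0849, range 7.99e-05 to 0.0849). RSAD1, named for its similarity to the family, went from 35.5 ± 0.517 to 30.2 ± 1.64 CPM (-0.23, edgeR adjusted p = 0.00447), a call lost without BAY1217389 replicate 1 (0.0797, range 0.00303 to 0.0797). TYW1, which modifies transfer RNA, had -0.22 (edgeR adjusted p = 0.0649) and MOCS1, of molybdenum cofactor synthesis, 0.38 (0.107), and both did not pass.

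The enzymes around CMPK2 moved by small amounts. Of 25 nucleotide kinase, CTP synthase and ribonucleotide reductase genes, 3 rose, 11 fell and 11 did not pass (median log2 fold change -0.09). Over all genes tested the shares were 14.5% and 13.3%. The highest value in the list was 0.30 for AK6, named after its values were seen. DTYMK, which phosphorylates dTMP, went from 36.8 ± 0.161 to 27.1 ± 1.31 CPM (-0.44), and thymidine kinase TK1 from 52.5 ± 0.395 to 39.9 ± 1.34 CPM (-0.40). RRM1, a ribonucleotide reductase subunit, had -0.34 and NME2, a nucleoside diphosphate kinase, -0.19. CMPK1, the cytosolic counterpart of CMPK2 and named here after its values were seen, had 172 ± 0.905 and 163 ± 4.0 CPM (-0.08, edgeR adjusted p = 0.0917), and it passed without BAY1217389 replicate 1 (0.0459, range 0.0459 to 0.371). With DESeq2, 1 gene of this list rose and 6 fell, and the number that fell lay between 6 and 11 over all alternatives.

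Factors that work with these proteins also changed little. Of 9 tested genes of cytosolic iron-sulphur assembly, which gives viperin its cluster, 1 rose, 2 fell and 6 did not pass. MMS19 went from 71.6 ± 2.02 to 58.1 ± 0.724 CPM (-0.30) and CIAO2B from 53.3 ± 1.91 to 61.6 ± 1.94 CPM (0.21). NUBP2 had -0.15 (edgeR adjusted p = 0.0448), a call lost under 7 of the alternatives, including DESeq2, limma-voom and the stricter filter, with a range of 0.0147 to 0.403. CIAO1, which hands the cluster to viperin, had -0.09 (edgeR adjusted p = 0.0826). Of 16 reported partners, 0 rose and 5 fell, with a median of -0.06, where 14.5% of all genes tested rose and 13.3% fell. FDPS, a sterol pathway enzyme reported to bind viperin, went from 319 ± 7.21 to 258 ± 5.06 CPM (-0.31), and VAPA, an endoplasmic reticulum protein also reported to bind it, had -0.15. PPIA, the cyclophilin that binds the HIV-1 capsid targeted by MxB, had -0.09 and the nuclear import receptor TNPO1 -0.09, and without DMSO replicate 1 both calls were lost (edgeR adjusted p = 0.0781 and 0.176), the TNPO1 call also without BAY1217389 replicate 2 (0.0663). Their adjusted p over all alternatives ran from 8.99e-04 to 0.0781 and from 0.00261 to 0.176. The fifth, named after its values were seen, was the kinase gene IRAK1 (-0.11, edgeR adjusted p = 0.0207). Its call was lost with DESeq2 (0.0708), with no filter (0.0691), without DMSO replicate 2 (0.209) and without BAY1217389 replicate 1 (0.291), over a range of 0.00391 to 0.291.

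The genes beside the 4 on their chromosomes were followed as well, in the order of the RefSeq table. On chromosome 2 the order among the genes followed was LINC00487, NRIR, CMPK2, RSAD2, GRASLND, RNF144A and ID2. NRIR, a noncoding RNA reported to restrain the interferon response, had 3 and 0 reads with DMSO and 44 and 45 with BAY1217389, a ratio of summed reads of 27.0 (95% interval 8.94 to 133; edgeR adjusted p = 2.01e-06). Its fitted log2 fold change of 4.65 became 3.71 without DMSO replicate 2 and 8.43 without DMSO replicate 1, which leaves 0 reads with DMSO. NRIR lies directly past the end of CMPK2 on the same strand in GENCODE 29, and it had 3.09 and 0 reads per 100 CMPK2 reads with DMSO, from 3 and 0 reads, and 1.08 and 1.19 with BAY1217389. Reads of CMPK2 running past its end could be counted there, which was not tested. GRASLND, the antisense RNA also called RNF144A-AS1, went from 180 and 210 to 437 and 440 reads (log2 fold change 1.03, SE 0.13, edgeR adjusted p = 4.64e-08). RNF144A, a ubiquitin ligase gene that overlaps it, went from 39.7 ± 0.563 to 49.95 ± 0.0406 CPM (0.33), and without a stated strand setting reads of the pair cannot be told apart. ID2, further along, went from 28.1 ± 2.83 to 37.3 ± 0.160 CPM (0.41), and LINC00487 had 0 reads in every library.

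On chromosome 21 the order was BACE2, PLAC4, FAM3B, MX2, MX1, TMPRSS2, RIPK4 and PRDM15. The genes flanking the MX pair were silent or nearly so: FAM3B had 0 and 0 reads with DMSO and 5 and 2 with BAY1217389, and TMPRSS2 had 0 in all 4 libraries, which allows up to 3 reads in each, or 0.0766 CPM in the shallowest. PLAC4 had 0 and 3 reads with DMSO and 0 and 0 with BAY1217389. BACE2 (71.6 ± 2.33 and 73.5 ± 0.355 CPM), RIPK4 (24.5 ± 0.901 and 24.2 ± 0.878 CPM) and PRDM15 (8.80 ± 0.0151 and 7.42 ± 0.568 CPM) did not pass the test, with log2 fold changes of 0.04, -0.02 and -0.24. Of the 7 neighbours tested on both chromosomes, 4 rose and 0 fell and 3 did not pass, where 14.5% of all genes tested rose and 13.3% fell.

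**Figure D4:**
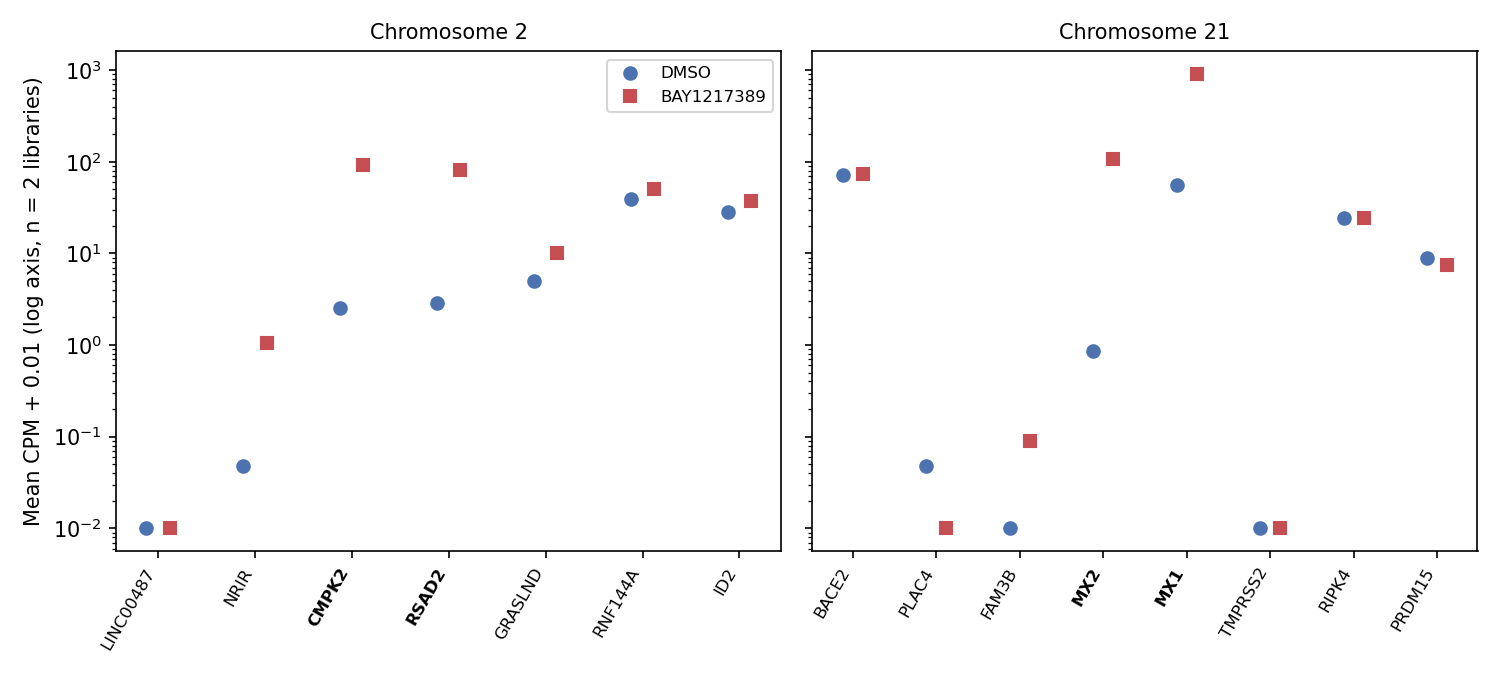
Mean CPM plus 0.01 on a log axis (n = 2 libraries a group; circles DMSO, squares BAY1217389) for genes in chromosomal order around CMPK2 and RSAD2 (chromosome 2) and around MX2 and MX1 (chromosome 21), the 4 genes in bold. NRIR, CMPK2, RSAD2, MX2 and MX1 show wide gaps between groups, that of NRIR from 3 and 0 reads with DMSO. The groups lie close together for BACE2, RIPK4 and PRDM15, further out on chromosome 21.

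Only some of 10 epithelial and lung markers were well expressed. KRT8 and KRT18, keratins of simple epithelium, went from 2202 to 2698 CPM and from 1582 to 1805 CPM. EPCAM (2.19 CPM with DMSO, 2.66 with BAY1217389) and the lung marker NAPSA (0.636 and 0.775 CPM) were low. KRT19 and the lung markers NKX2-1 and SFTPB had 0 reads in every library. Of 7 of these markers tested, 3 rose, namely KRT8, KRT18 and CDH1 (edgeR adjusted p = 2.29e-14, 1.04e-08 and 0.0449). Of 11 leukocyte, endothelial and fibroblast markers, PTPRC and MS4A1, which define leukocytes and B cells, had 0 reads in all libraries, and the summed level was 77.4 and 81.6 CPM with DMSO and 173 and 178 CPM with BAY1217389. Most of that sum was CD68, a lysosomal protein gene that went from 70.7 to 163 CPM. Of 5 of these 11 markers tested 3 rose, where 14.5% of all genes tested rose. Besides CD68 they were the fibroblast gene COL1A1 (4.27 to 6.41 CPM, edgeR adjusted p = 0.00282) and the endothelial gene PECAM1 (0.789 to 1.52 CPM, 0.0232). Their part in the results was not tested.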

How the data were processed

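Per the file headers, the authors deposited unnormalized whole-number counts of reads for each gene symbol and RefSeq identifier. Per the labels' protocols, libraries were made with the Illumina TruSeq Stranded mRNA kit. The submitters' processing notes name hg18, but some RefSeq identifiers in the sheets are of later date, and the gene models used for counting are not known. Aligner, counter and strand setting were not given in the sources used here. Another 4 per-sample columns (16 with repeats) match no sample of the series and were left out.

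The tests were run with edgeR 4.0.16 under R 4.3.3: filterByExpr (minimum count 10, minimum total 15; 29689 lines left out), TMM factors (0.994 to 1.01), robust quasi-likelihood fit and two-sided glmQLFTest over 16738 genes, Benjamini-Hochberg adjusted, threshold 0.05. The fit was tested on simulated data. SEs are Wald SEs of the fitted coefficient. The common biological coefficient of variation was 3.99%. Promoters came from RefSeq and lengths from GENCODE 29, both on GRCh38, with no coordinates of the files used. Identities used Biopython 1.88.

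The 4 genes and all lists were chosen with earlier results of these data known. Named were the 4 genes, every neighbour listed, up to 4 genes of each list by p (plus STAT2 and IRF9) and the 3 nearest genes by pattern, and 1 gene that this rule names is not reported here. Protein sequences were planned but not used here. The replicate pairs differed by more than counting noise (chi-square per degree of freedom 3.74 for DMSO and 3.93 for BAY1217389). Alternatives covered normalization, filters, DESeq2 1.42.0, limma-voom 3.58.1, a replicate block, each library left out and equal depth.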

Additional observations from a re-analysis of the deposited data

How the results depend on the processing

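The log2 fold changes of the 4 genes barely moved over 11 alternatives, from 4.01 to 4.05 for MX1, 6.89 to 7.03 for MX2, 4.71 to 4.92 for RSAD2 and 5.12 to 5.21 for CMPK2, and in each alternative the order was MX2, CMPK2, RSAD2, MX1. Their extremes came with 1 library left out. Over all genes, 2428 rose and 2232 fell, against 1620 and 1400 with DESeq2, and with 1 library left out 1720 to 2107 rose and 1687 to 1719 fell. With the replicate block, 2466 rose and 2326 fell. Deviations of same-numbered libraries correlated at 0.0439 over genes, and the labels do not say that the numbers mark a shared batch, so the numbers are not taken to pair the libraries. The other 44 interferon effectors rose in every alternative, and 11 to 13 of the interferon pathway genes did. Levels per kilobase changed their lower order with the length used. Among the single genes followed over the alternatives, 8 lost their call under at least 1, with 21 lost calls in all: NUBP2, IRAK1, ATL2, OPA1, TNPO1, LIAS, RSAD1 and PPIA. The cell type markers, and genes named only for their rank or pattern, were not followed in this way. Only 32 and 35 reads stand behind the DMSO level of MX2. The cause of the lower DESeq2 counts was not tested.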
